A study of Mus musculus with 12 samples.

Results

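The Serpina3 genes are a row of related serine protease inhibitor genes on mouse chromosome 12, and 8 of them (Serpina3c, Serpina3f, Serpina3g, Serpina3h, Serpina3i, Serpina3k, Serpina3m and Serpina3n) are described here, out of 45906 genes in the deposited count table. The members were chosen by their symbol and position, and the group was picked on a measured value: the lower level of Serpina3f in Plekhg5+/+ SOD1-G93A than in Plekhg5+/+ spinal cord. The values of that contrast are therefore given as a description for all members, and nothing is read from which of them passed a threshold. The other comparisons share libraries with it, except that of Plekhg5-/- SOD1-G93A with Plekhg5-/- mice. The levels in that one come from 6 libraries that the choice did not use. Its intervals and p-values come from a fit over all 12 libraries, which include those of the choice.

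Spinal cords of 12 mice aged 7 months, 3 of each genotype, were used whole for sequencing of poly(A) RNA. Plekhg5+/+ mice served as wildtype controls, Plekhg5-/- mice lacked the guanine exchange factor Plekhg5, Plekhg5+/+ SOD1-G93A mice carried a human SOD1 transgene with a substitution known from familial ALS, and Plekhg5-/- SOD1-G93A mice combined the 2 changes. The mice had a C57BL/6 background, and the transgene was the low copy form, which gives a slow disease course. Plekhg5 is deleted in all cells of the animal, not in a chosen cell type. The labels give neither litter nor sex.

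Serpins inhibit proteases by offering an exposed loop that the protease cuts, after which the serpin folds around it and traps it. Humans have a single SERPINA3 gene, which encodes alpha-1-antichymotrypsin, an acute phase protein of the liver that is also made by astrocytes, whereas the mouse carries a cluster of copies whose reactive loops have diverged. Serpina3n, the copy best known from the nervous system, is a secreted inhibitor used as a marker of reactive astrocytes and is also made by injured neurons and by oligodendrocytes. Serpina3g is an inhibitor that acts inside leukocytes and can inhibit cysteine cathepsins, Serpina3k is known as contrapsin from liver and plasma, Serpina3c is known as a kallikrein-binding protein, and Serpina3h is listed as a transcribed pseudogene.

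The members span 267428 bases of GRCm38.p6, from 104146907, where Serpina3c starts, to 104414334, where Serpina3n ends. Serpina3c lies on the minus strand and the other 7 on the plus strand. Serpina3f (104214544 to 104221129), Serpina3g (104236147 to 104241939), Serpina3h (104247896 to 104254405) and Serpina3i (104263045 to 104269509) follow each other, and Serpina3k (104338486 to 104345739), Serpina3m (104387157 to 104394259) and Serpina3n (104406646 to 104414334) lie beyond them. Promoter sequences of 5 members (Serpina3c, Serpina3f, Serpina3g, Serpina3i and Serpina3n) were found in RefSeq on GRCm38.p6, from 250 bases before to 50 bases after the start of a transcript. Serpina3h, Serpina3k and Serpina3m had no entry.

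Of these, 4 promoters are shown, because Serpina3n and Serpina3c differ widely in level in this tissue, and Serpina3f and Serpina3g had high levels in the same libraries. They are printed 5′ to 3′ on the strand of the gene, and capitals mark matches to the STAT motif TTCNNNGAA (in Serpina3f and Serpina3g) or to the glucocorticoid receptor motif, called GRE (in Serpina3n and Serpina3c). The windows are chr12:104406458-104406757 (plus strand) for Serpina3n, chr12:104153823-104154122 (minus strand) for Serpina3c, chr12:104214294-104214593 (plus strand) for Serpina3f and chr12:104235897-104236196 (plus strand) for Serpina3g.
Serpina3n: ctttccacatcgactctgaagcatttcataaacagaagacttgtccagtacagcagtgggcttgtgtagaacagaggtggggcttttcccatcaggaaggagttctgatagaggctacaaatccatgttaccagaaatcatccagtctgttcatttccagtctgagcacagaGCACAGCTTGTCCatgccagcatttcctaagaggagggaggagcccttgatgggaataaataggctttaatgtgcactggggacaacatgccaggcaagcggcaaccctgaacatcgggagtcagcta
Serpina3c: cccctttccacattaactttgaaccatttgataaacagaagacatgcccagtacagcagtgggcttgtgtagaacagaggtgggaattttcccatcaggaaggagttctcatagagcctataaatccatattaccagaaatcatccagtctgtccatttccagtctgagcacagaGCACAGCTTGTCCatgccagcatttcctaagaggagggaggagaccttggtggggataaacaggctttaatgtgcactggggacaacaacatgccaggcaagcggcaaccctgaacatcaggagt
Serpina3f: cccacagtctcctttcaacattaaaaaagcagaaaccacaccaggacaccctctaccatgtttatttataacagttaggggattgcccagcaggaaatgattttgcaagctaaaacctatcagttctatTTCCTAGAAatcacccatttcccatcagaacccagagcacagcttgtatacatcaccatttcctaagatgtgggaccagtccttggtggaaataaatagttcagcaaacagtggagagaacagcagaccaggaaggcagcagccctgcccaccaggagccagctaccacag
Serpina3g: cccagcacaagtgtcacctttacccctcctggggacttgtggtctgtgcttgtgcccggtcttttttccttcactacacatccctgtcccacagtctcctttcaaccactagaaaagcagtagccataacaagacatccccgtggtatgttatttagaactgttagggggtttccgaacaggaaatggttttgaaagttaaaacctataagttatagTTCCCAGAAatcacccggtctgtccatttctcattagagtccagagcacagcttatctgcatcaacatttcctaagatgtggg

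The windows of Serpina3n and Serpina3c were the most alike, with 89.9% identity in a global alignment, and the other pairs among the 5 had 41.4% to 67.9%. The STAT motif, a palindrome, was found in the windows of Serpina3f (121 to 113 bases before the start), Serpina3g (33 to 25 bases before) and Serpina3i (102 to 94 bases before), that is in 3 of 5, and in 8.3% of the 32851 promoters in the table. The GRE motif (G, any base, ACA, any 3 bases, TGT, any base, C), which also reads the same on both strands, was found in the windows of Serpina3n (78 to 66 bases before the start) and Serpina3c (75 to 63 bases before) and in 0.475% of all promoters. The interferon motif ISRE (GAAA, any 2 bases, GAAA) was found in 0 of 5 windows and in 3.44% of all promoters. An NF-kB motif (GGG, any 5 bases, CC) was found in 4 of 5 windows (not in that of Serpina3c) and in 50.8% of all promoters. Its matches on opposite strands overlapped in Serpina3f, Serpina3i and Serpina3n. TATAAA was found in the windows of Serpina3c and Serpina3f and in 13.6% of all promoters. Both strands were searched. A match describes the letters in the window and no more.

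The libraries held 30415643 to 38743628 counts, with a median of 32714352. Plekhg5 was measured at 3.28 to 4.72 CPM (counts per 1000000 counts of the library, scaled with the TMM method) in the 6 libraries labelled Plekhg5-/- and at 19.4 to 25.0 CPM in the 6 labelled Plekhg5+/+, and human SOD1 at 4421 to 5638 CPM in the transgenic and 0.153 to 5.47 CPM in the other libraries. Neuronal, oligodendrocyte, astrocyte and microglial markers were all present, and transcripts of Y-linked genes were found in 8 of the 12 libraries. The libraries without them were Plekhg5-/- replicate 2, Plekhg5+/+ SOD1-G93A replicate 2 and Plekhg5-/- SOD1-G93A replicates 2 and 3. All Plekhg5+/+ libraries had them, so sex was not evenly spread over the genotypes and cannot be fully told apart from genotype. The Plekhg5+/+ replicate 1 and Plekhg5+/+ SOD1-G93A replicate 1 libraries stood apart in the genes described here, and values without them are given where they matter. In whole spinal cord, fewer cells of a type cannot be told apart from less RNA per cell.

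Reads that matched several genes were counted by the authors as fractions. The counts of Serpina3h and Serpina3i were not whole in 12 of the 12 libraries, those of Serpina3g in 10, of Serpina3m in 9, of Serpina3f and Serpina3n in 7, of Serpina3k in 4 and of Serpina3c in 3. To see how far the members can be told apart, all stretches of 75 bases, the read length, were compared between the GENCODE transcripts of the Serpina3 genes. Of the stretches in Serpina3h transcripts 11% were also found in another Serpina3 gene, of those in Serpina3m 9.65%, in Serpina3g 7.69%, in Serpina3k 7.36%, in Serpina3i 6.62% and in Serpina3f 5.33%. In Serpina3n the share was 1.46% and in Serpina3c 0.327%. Serpina3f, Serpina3g, Serpina3h and Serpina3i shared stretches with each other, and Serpina3k shared its stretches with Serpina3m, which also shared 7 with Serpina3c. All 29 stretches that Serpina3n shared were found in the pseudogene Serpina3e-ps (1.46%), 26 of them also in Serpina3g, and none in Serpina3f.

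Serpina3n made up 96.0% of the counts of the 8 genes, with 83.45% in the Plekhg5+/+ replicate 1 library at the lowest and 98.5% in Plekhg5+/+ SOD1-G93A replicate 1 at the highest. Per kilobase of exon, the level in Plekhg5+/+ mice was 28.3 ± 2.04 CPM per kb (SD, n = 3) for Serpina3n and 2.18 ± 1.01 for Serpina3g. Then followed Serpina3f at 0.848 ± 0.892 and Serpina3c at 0.652 ± 0.0878 CPM per kb, whose ranges overlapped. Serpina3i was at 0.151 ± 0.0596 and Serpina3h at 0.122 ± 0.0817 CPM per kb, also with overlapping ranges. Serpina3m and Serpina3k, at 0.0482 ± 0.0414 and 0.0439 ± 0.0760 CPM per kb, came last. In Plekhg5-/- mice the order at the top was the same, with Serpina3n at 32.7 ± 5.94 CPM per kb, but Serpina3f was at 0.0195 ± 0.0198 CPM per kb, next to last before Serpina3k, which had 0 counts in those 3 libraries.

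The edgeR filter on low counts passed 5 of the 8 members (Serpina3c, Serpina3f, Serpina3g, Serpina3i and Serpina3n). Serpina3f had 10 or more counts in 3 libraries, those of the Plekhg5+/+ mice, and so passed through the group in which it was high. Serpina3h, Serpina3k and Serpina3m did not pass and are given by their counts alone.

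**Figure D1:**
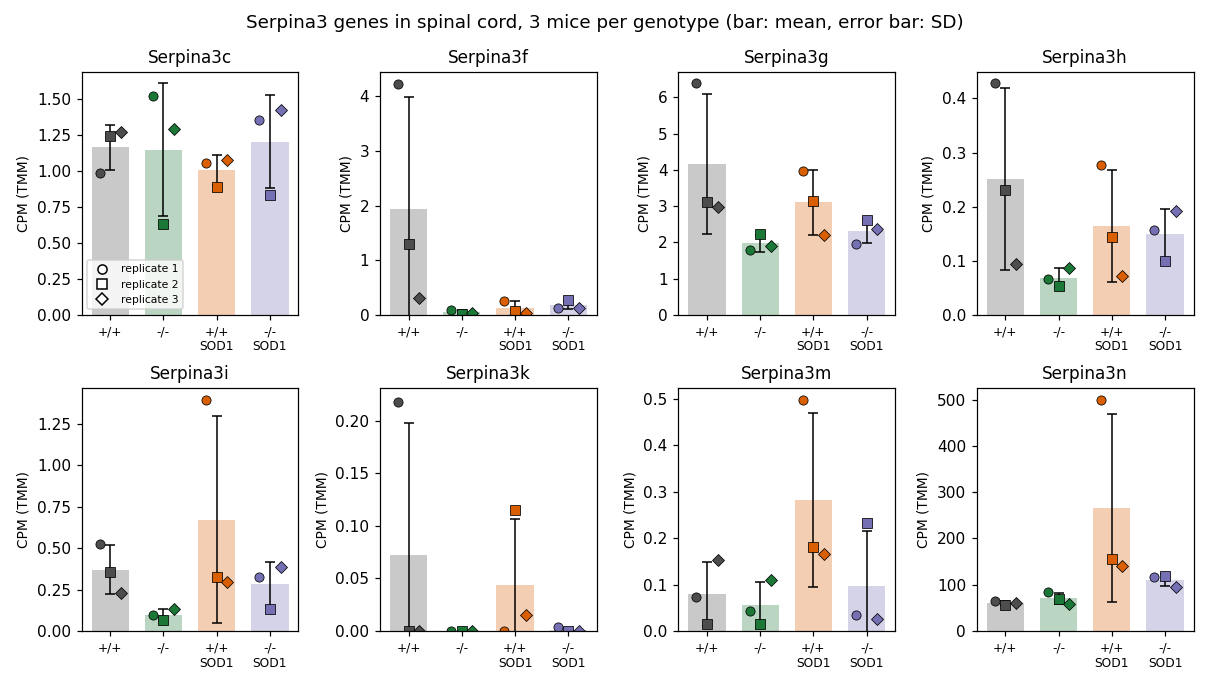
Level of each of the 8 Serpina3 genes in CPM (vertical axis, from 0, with its own scale per gene) in the 4 genotypes (horizontal axis), with 1 point per mouse, bars for the mean and error bars for the SD (n = 3), which are cut off at 0. Serpina3n was highest in the Plekhg5+/+ SOD1-G93A mice, from 140.6 to 499.8 CPM, and Serpina3f in the Plekhg5+/+ mice, from 0.306 to 4.23 CPM.

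Serpina3n, the secreted inhibitor of reactive astrocytes, had 64.8, 56.1 and 61.6 CPM in the 3 Plekhg5+/+ libraries and 83.6, 69.4 and 58.1 CPM in the 3 Plekhg5-/- libraries. With the transgene it had 499.8, 155.6 and 140.6 CPM in Plekhg5+/+ SOD1-G93A and 116.9, 119.9 and 94.9 CPM in Plekhg5-/- SOD1-G93A mice. Each transgenic library was thus above each library without the transgene, and each Plekhg5+/+ SOD1-G93A library was above each Plekhg5-/- SOD1-G93A library. Replicate 1 of Plekhg5+/+ SOD1-G93A was 3.21 times the next highest library, whereas the 3 Plekhg5-/- SOD1-G93A libraries differed by no more than 1.26 times.

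Serpina3f had 145.92, 41 and 10 counts in the Plekhg5+/+ libraries, which is 4.23, 1.29 and 0.306 CPM. In the other 9 libraries it had between 0.25 and 8.75 counts, and all 9 lay under the lowest Plekhg5+/+ library. The counts were 3.25, 0.25 and 1 in Plekhg5-/-, 8.42, 2 and 1.25 in Plekhg5+/+ SOD1-G93A and 4.25, 8.75 and 5 in Plekhg5-/- SOD1-G93A mice. The low level was thus not limited to transgenic mice, and the 3 control mice differed among themselves by 13.8 times.

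Serpina3g, the intracellular inhibitor, had 6.39, 3.11 and 2.97 CPM in Plekhg5+/+ and 1.78, 2.24 and 1.89 CPM in Plekhg5-/- mice, groups that did not overlap. It had 3.97, 3.14 and 2.20 CPM in Plekhg5+/+ SOD1-G93A and 1.945, 2.61 and 2.36 CPM in Plekhg5-/- SOD1-G93A mice, which overlapped. The highest library was Plekhg5+/+ replicate 1, the same as for Serpina3f. Of the counts of Serpina3f and Serpina3g together, Serpina3f held 39.85%, 29.3% and 9.35% in the Plekhg5+/+ libraries and 0.336% to 9.23% in the other 9.

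Serpina3i had 0.524, 0.357 and 0.232 CPM in Plekhg5+/+ and 0.0951, 0.0678 and 0.134 CPM in Plekhg5-/- mice. It had 1.395, 0.324 and 0.2975 CPM in Plekhg5+/+ SOD1-G93A and 0.326, 0.134 and 0.386 CPM in Plekhg5-/- SOD1-G93A mice. The highest library was Plekhg5+/+ SOD1-G93A replicate 1, as for Serpina3n, at 2.66 times the next. The lowest 3 were those of the Plekhg5-/- mice, though replicate 3, at 0.1341 CPM, was all but tied with Plekhg5-/- SOD1-G93A replicate 2, at 0.1342 CPM. Serpina3c, the kallikrein-binding member, lay between 0.633 and 1.52 CPM in all 12 libraries, with group means of 1.01 to 1.205 CPM and overlap between all genotypes.

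The 3 members under the filter had few counts. Serpina3h, the pseudogene, had 14.75, 7.33 and 3.08 counts in Plekhg5+/+ and 2.25, 1.75 and 2.75 counts in Plekhg5-/- libraries, and 2.42 to 8.92 counts in the 6 transgenic ones. Serpina3m had 16 counts in Plekhg5+/+ SOD1-G93A replicate 1 and at most 7.67 counts in any other library. Serpina3k, the liver member, had 7.5 counts in Plekhg5+/+ replicate 1, 3.5 in Plekhg5+/+ SOD1-G93A replicate 2 and 0.5 or fewer in the other 10. In the 3 Plekhg5-/- libraries it had 0 counts, which allows a level of up to 0.0303 CPM over the group (3 counts, counting error alone). The 6 hepatocyte markers summed to 3.42 CPM in Plekhg5+/+ replicate 1 and 3.17 CPM in Plekhg5+/+ SOD1-G93A replicate 2, the same 2 libraries, and to 0.881 to 1.62 CPM in the other 10. Their part in the counts of Serpina3k was not tested.

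Summed over the 7 members other than Serpina3n, a sum that does not depend on how reads were divided among these 7, the level was 8.04 ± 4.21 CPM in Plekhg5+/+, 3.39 ± 0.325 in Plekhg5-/-, 5.39 ± 1.85 in Plekhg5+/+ SOD1-G93A and 4.22 ± 0.284 in Plekhg5-/- SOD1-G93A mice (SD, n = 3 each). The 3 Plekhg5-/- libraries, at 3.01 to 3.60 CPM, lay under each of the other 9, the lowest of which had 3.86 CPM. Without replicate 1 the mean of the Plekhg5+/+ mice was 5.64 CPM. The sum includes Serpina3f, with 4.23 of 12.85 CPM in that replicate, so the choice of the cluster in part fixed the height of the Plekhg5+/+ sum.

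**Figure D2:**
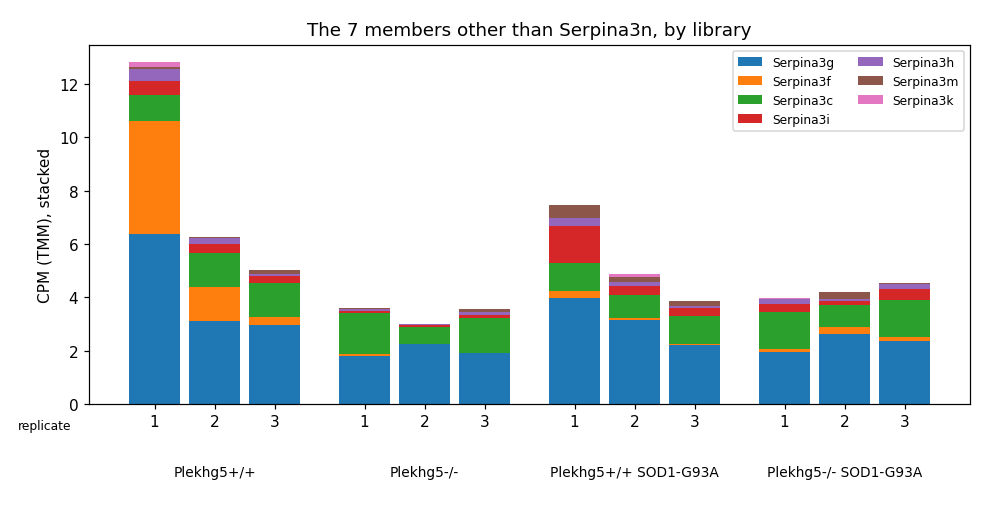
Levels of the 7 members other than Serpina3n in CPM (vertical axis), stacked for each of the 12 libraries (horizontal axis, replicates 1 to 3 of each genotype). Serpina3g and Serpina3c were present in each library, whereas the Serpina3f share is seen in the Plekhg5+/+ libraries, with 4.23 of 12.85 CPM in replicate 1.

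The first comparison asked how the cluster differed with the transgene when Plekhg5 was present, and it is the one that chose the members. Serpina3n was 4.36 times as high in Plekhg5+/+ SOD1-G93A as in Plekhg5+/+ mice (265.4 ± 203.2 against 60.8 ± 4.40 CPM, SD, n = 3 each), with a log2 fold change of 2.12 (standard error 0.434, edgeR), or 1.28 without Plekhg5+/+ SOD1-G93A replicate 1. The mean of Serpina3f was 0.122 ± 0.122 against 1.94 ± 2.04 CPM (SD, n = 3 each), a log2 fold change of -4.05 (standard error 0.937). Without Plekhg5+/+ replicate 1 it was -2.76, and without Plekhg5+/+ SOD1-G93A replicate 1, -5.27. The log2 fold changes of Serpina3i, Serpina3g and Serpina3c were 0.85, -0.43 and -0.22, with standard errors of 0.566, 0.284 and 0.295. That of Serpina3i was -0.25 without Plekhg5+/+ SOD1-G93A replicate 1, and that of Serpina3g was 0.0211 without Plekhg5+/+ replicate 1. Serpina3n, higher, and Serpina3f, lower, were 2 of the 5 genes under an adjusted p of 0.05 in edgeR, a count that the choice of Serpina3f in part fixed and that is no evidence about the cluster. Of the 20155 genes in the fit 2.47% were called, 2.09% as higher and 0.377% as lower.

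The same question in mice without Plekhg5 compares libraries that did not choose the members. Its intervals and p-values come from the fit over all 12 libraries, and Serpina3f passed the filter through the Plekhg5+/+ libraries alone. Serpina3n had 110.6 ± 13.6 CPM in Plekhg5-/- SOD1-G93A and 70.4 ± 12.8 CPM in Plekhg5-/- mice (SD, n = 3 each), 1.57 times as much. The groups did not overlap, but the difference did not pass the test, with a log2 fold change of 0.65 (95% interval -0.29 to 1.59, adjusted p = 0.950, edgeR's quasi-likelihood test). Serpina3f had 0.175 ± 0.0782 with and 0.0447 ± 0.0452 CPM without the transgene (SD, n = 3 each). These means stand for 18 and 4.5 counts in all, and the log2 fold change of 2.01 (95% interval -1.39 to 5.41, adjusted p = 0.950, same test) did not pass, depends on the prior count that edgeR adds and was 3.20 without Plekhg5-/- replicate 1. Serpina3i had 0.282 ± 0.132 against 0.0990 ± 0.0333 CPM (SD, n = 3 each; log2 fold change 1.62, 95% interval -0.13 to 3.36, adjusted p = 0.950, same test). The intervals of Serpina3g (-0.42 to 0.88) and Serpina3c (-0.55 to 0.70) lay around 0. None of the 5 genes passed an adjusted p of 0.05 in edgeR, 0 had an unadjusted p under 0.05 there, and DESeq2 and limma voom called 0 as well. Across all genes tested in that edgeR fit 0.00496% were called and 5.38% had an unadjusted p under 0.05. The unadjusted p depended on the model. In limma voom it was 0.0141 for Serpina3f, 0.0266 for Serpina3n and 0.0332 for Serpina3i. With only the 2 genotypes in the edgeR fit it was 0.0320, 0.00132 and 0.0179, and none passed after adjustment. For Serpina3g and Serpina3c it was 0.0901 or more in both. The share of all genes in these 2 fits was not counted. The groups did not overlap in 3 of the 5 genes, Serpina3f, Serpina3i and Serpina3n, all higher with the transgene, as were 7.26% of all genes tested. For Serpina3i they were all but tied, with 0.1341 CPM (4.25 counts) in Plekhg5-/- replicate 3 and 0.1342 CPM (4.42 counts) in Plekhg5-/- SOD1-G93A replicate 2. Serpina3f had only 0.25 to 8.75 counts in these libraries.

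The loss of Plekhg5 without the transgene shares its controls with the first comparison, so high values of Serpina3f in the Plekhg5+/+ libraries enter both. For Serpina3f, edgeR gave a log2 fold change of -5.47 (95% interval -7.89 to -3.05, adjusted p = 0.383), which did not pass. It was -4.18 without Plekhg5+/+ replicate 1, -5.98 without Plekhg5+/+ replicate 3 and -6.67 without Plekhg5-/- replicate 1. Serpina3f passed the filter through the Plekhg5+/+ libraries alone, whose high values also chose the cluster, so its value here is no independent support. Serpina3g was at 0.474 times the level of Plekhg5+/+ mice (log2 fold change -1.08, 95% interval -1.71 to -0.44, adjusted p = 0.713, edgeR). Serpina3i was at 0.267 times (log2 fold change -1.99, 95% interval -3.68 to -0.31, adjusted p = 0.929, edgeR). Serpina3n was at 1.16 times (log2 fold change 0.21, 95% interval -0.74 to 1.16, adjusted p = 0.997, edgeR), a difference smaller than the spread between mice. In edgeR 0 of the 5 genes passed and 3 had an unadjusted p under 0.05, limma voom called 0, and DESeq2 called 1, Serpina3f, to which the same limit applies. Across all genes tested 0.0298% were called and 5.32% had an unadjusted p under 0.05. The 3 genes, Serpina3f, Serpina3g and Serpina3i, were lower in each Plekhg5-/- than in each Plekhg5+/+ library, as were 4.03% of all genes tested.

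The loss of Plekhg5 in transgenic mice asks how the cluster differed in the presence of mutant SOD1, and shares the Plekhg5+/+ SOD1-G93A libraries with the first comparison. Serpina3n was at 0.417 times the level of Plekhg5+/+ SOD1-G93A mice, with a log2 fold change of -1.26 (95% interval -2.21 to -0.32, adjusted p = 0.517, edgeR's quasi-likelihood test). Its groups did not overlap, and 10% of all genes tested were likewise lower in each library. Without Plekhg5+/+ SOD1-G93A replicate 1 the log2 fold change was -0.42, the weakest of the values with 1 library left out, and those of Serpina3i and Serpina3f were -0.14 and 1.80. Serpina3i had a log2 fold change of -1.23 (95% interval -2.49 to 0.03, adjusted p = 0.578), Serpina3g of -0.43 (-1.06 to 0.21, adjusted p = 0.662), Serpina3f of 0.58 (-2.20 to 3.36, adjusted p = 0.894) and Serpina3c of 0.26 (-0.37 to 0.90, adjusted p = 0.779), all from the same edgeR test. Of the 5 genes, 0 passed in edgeR, 1 (Serpina3n) had an unadjusted p under 0.05, and DESeq2 and limma voom called 0. Across all genes tested 0.0347% were called and 8.64% had an unadjusted p under 0.05 in edgeR. The adjusted p of Serpina3n depended on the model. It was 0.0816 in DESeq2 with a fold-change prior and up to 0.868 in edgeR with 1 library left out.

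**Figure D3:**
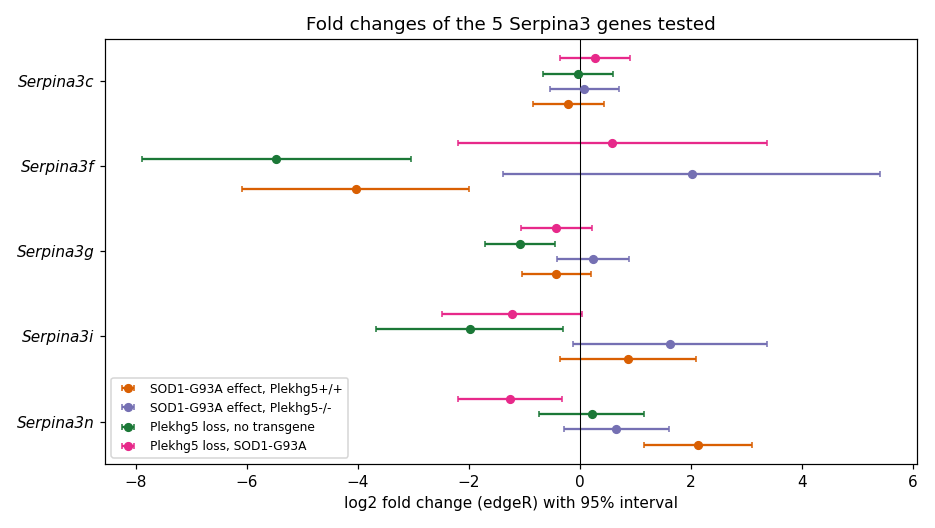
Log2 fold changes (horizontal axis) of the 5 Serpina3 genes that passed the filter (vertical axis) in the 4 comparisons (colours), as points with 95% intervals from edgeR. The intervals of Serpina3c all cover 0, those of Serpina3f are the widest, and its points for the transgene are at -4.05 with Plekhg5 and at 2.01 without it, where the interval covers 0.

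The difference of the transgene effects with and without Plekhg5 was tested as an interaction, which contains the contrast that chose the members. In edgeR's quasi-likelihood test it was 6.05 for Serpina3f on the log2 scale (95% interval 2.09 to 10.02), a value that draws on the libraries that chose the cluster, and -1.47 for Serpina3n (95% interval -2.81 to -0.14, adjusted p = 0.511, same test). That of Serpina3n was -0.63 without Plekhg5+/+ SOD1-G93A replicate 1, and that of Serpina3i 1.86 against 0.76. That of Serpina3f was 4.76 without Plekhg5+/+ replicate 1, 7.26 without Plekhg5-/- replicate 1 and 7.28 without Plekhg5+/+ SOD1-G93A replicate 1. In edgeR 0 of the 5 genes passed, as did 0% of all genes tested, and 2 of the 5 had an unadjusted p under 0.05, against 9.05% of all genes. Limma voom called 0, DESeq2 without the prior called 0 but gave Serpina3f no adjusted p, and DESeq2 with the prior called 1, Serpina3f, which is no independent support.

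Across the 12 libraries, log2 CPM of Serpina3f and Serpina3g had a Pearson correlation of 0.805, of Serpina3g and Serpina3i of 0.639 and of Serpina3i and Serpina3n of 0.628. Serpina3f and Serpina3n had a correlation of -0.19, and Serpina3c had between -0.28 and 0.17 with the other 4. These describe 12 libraries of 4 genotypes, among which neighbouring members share reads. Serpina3n and Serpina3f ordered the libraries differently. The choice of the cluster on Serpina3f in part fixed this, since the 12 libraries include those of that contrast.

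The 5 genes most like Serpina3n among the 20154 others, by the Pearson correlation of log2 CPM over the 12 libraries, were Ctsb (0.995), Grn (0.995), Gusb (0.995), Ctsd (0.994) and Slc14a1 (0.991). Ctsb and Ctsd encode lysosomal cathepsins, Grn progranulin, Gusb the lysosomal beta-glucuronidase and Slc14a1 a urea transporter found in astrocytes. Each was highest in Plekhg5+/+ SOD1-G93A replicate 1, with Ctsd at 1845 CPM there and at 914 CPM or less elsewhere. The astrocyte markers (6 of 6 tested) summed to 9683 CPM in that library and to 5057 to 6662 CPM in the other 11, and the microglial markers (5 of 5 tested) to 456.1 CPM there and 193.9 to 326.3 CPM in the other 11. Their part in the level of Serpina3n was not tested.

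The 5 genes most like Serpina3f were P4ha1 (0.943), Gm13498 (0.934), Manf (0.934), Pdia6 (0.932) and Ebna1bp2 (0.931). P4ha1 encodes a collagen prolyl hydroxylase subunit, Pdia6 a protein disulfide isomerase and Manf a secreted factor, all proteins of the endoplasmic reticulum. The other 2 are Gm13498, a predicted gene, and Ebna1bp2, EBNA1 binding protein 2. All 5 genes were highest in Plekhg5+/+ replicates 1 and 2. P4ha1 had 95.3 and 77.8 CPM there, 42.8 CPM in replicate 3 and 35.6 to 51.7 CPM in the other 9 libraries. Manf had 60.3 and 46.4 CPM in the same 2 libraries, 29.35 CPM in replicate 3 and 25.7 to 35.5 CPM elsewhere. The Plekhg5+/+ mice differed among themselves in these genes in the same order as in Serpina3f. The choice of the genes by their correlation with Serpina3f over the same libraries in part fixed this order. The part of these differences in the fold changes of Serpina3f was not tested.

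**Figure D4:**
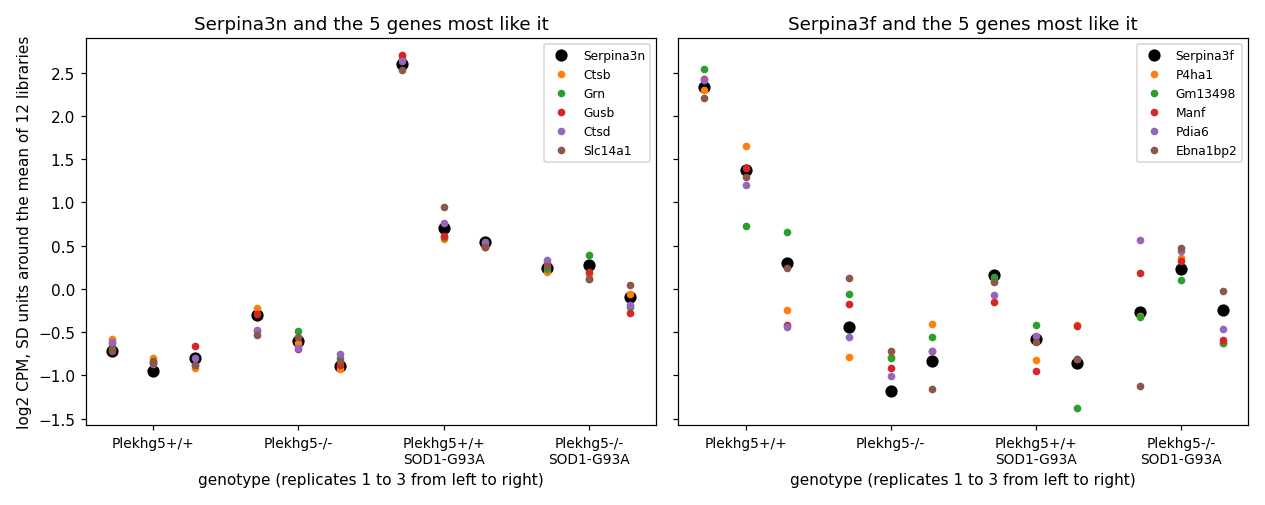
Log2 CPM in SD units around the mean of the 12 libraries (vertical axis) for Serpina3n (left, black) and Serpina3f (right, black), each with the 5 genes of the highest Pearson correlation (colours), in the 4 genotypes (horizontal axis, replicates 1 to 3 from left to right). Serpina3n and its 5 genes were highest in Plekhg5+/+ SOD1-G93A replicate 1, and Serpina3f and its 5 genes in Plekhg5+/+ replicate 1.

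Around the cluster, 18 other clade A serpin genes and pseudogenes of chromosome 12 were listed, and 1 passed the filter. This was Serpina9, with 6 to 19 counts per library and no call in any comparison. Serpina1a to Serpina1e, the alpha-1-antitrypsin genes of the liver, had at most 6.98 counts in a library, and Serpina3a, Serpina3b and Serpina3j at most 2. Within 1 Mb on either side of the members 20 other genes were tested, and edgeR called 0 of them in each comparison. Of all genes tested 0% to 2.47% were called in these comparisons, so the count says nothing particular about the neighbours.

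The pathway genes around serpin induction were read from lists. Of 12 reactive astrocyte genes, which include Gfap, Vim, Cp and Hspb1, 12 were tested and 7 were called higher in Plekhg5+/+ SOD1-G93A than in Plekhg5+/+ mice by edgeR (Gfap, Vim, Cd44, Timp1, S1pr3, Aspg and Cxcl10), beside 2.09% of all genes, with a median log2 fold change of 1.24 over the list and -0.000994 over all genes. Gfap, the filament protein of astrocytes, had 1527 ± 264 CPM in Plekhg5+/+ and 3592 ± 1266 CPM in Plekhg5+/+ SOD1-G93A mice (SD, n = 3 each), and Vim, another filament protein, 97.7 ± 20.3 and 241.5 ± 107.7 CPM. The other 5 were not called, with log2 fold changes of -0.73 for Lcn2 (17.6 ± 6.80 against 10.6 ± 5.63 CPM), -0.55 for Steap4, -0.16 for Cp, 0.58 for Hspb1 and 0.70 for Osmr. Of 16 acute phase and STAT3 signalling genes, which include Jak1, C4b, Il6st and Stat3, 14 were tested and 2 (Osm and C4b) were called higher, with a median of 0.33. C4b, a complement component, had 116.9 ± 14.4 and 314 ± 130.5 CPM in the 2 groups (SD, n = 3 each), whereas Stat3, the transcription factor, was not called (log2 fold change 0.28). Of 15 interferon gamma response genes, which include Ifngr2, Ifit3 and Ifngr1, 14 were tested and 1 (Cxcl10) was called higher, with a median of 1.23. Cxcl10, a chemokine, had 0.534 ± 0.224 and 6.21 ± 5.94 CPM (SD, n = 3 each), and Ifit3 was not called (log2 fold change 1.34). In Plekhg5-/- SOD1-G93A against Plekhg5-/- mice edgeR called 0 genes of the 3 lists, beside 0.00496% of all genes. The medians of the lists were 0.68, 0.31 and 0.44.

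Of 16 listed proteases, which include Ctsb, Ctss, Klk6 and Ctsl, 12 were tested. All but the metalloproteinase Mmp9 are of serine or cysteine protease families that serpins inhibit. In Plekhg5+/+ SOD1-G93A against Plekhg5+/+ mice the median log2 fold change over the 12 was 0.87, with -0.13 for Mmp9, which was not called. The cathepsins Ctsb, Ctsl and Ctss and the plasminogen activator Plau were called higher there by edgeR, beside 2.09% of all genes. Their log2 fold changes were 0.56 for Ctsb, 0.75 for Ctsl, 1.31 for Ctss and 2.29 for Plau, and in Plekhg5-/- mice, where edgeR called 0 of the 12, they were 0.18, 0.16, 0.17 and 0.74. Klk6, a kallikrein of oligodendrocytes, was not called (0.79 and -0.21). Gzmb, granzyme B, which Serpina3n is known to inhibit, did not pass the filter. Of 14 serpins outside clade A, which include Serpine2, Serpini1, Serpinb6a and Serpinb1a, 12 were tested and 0 were called by edgeR in any comparison. Of all genes tested 0% to 2.47% were called in these comparisons. The median log2 fold change of the 12 serpins was 0.08 with the transgene in Plekhg5+/+ and 0.15 in Plekhg5-/- mice. Over all genes the median was -0.000994 in Plekhg5+/+ and -0.0049 in Plekhg5-/- mice. With the loss of Plekhg5 in transgenic mice edgeR called 0 genes of these 5 lists, beside 0.0347% of all genes. The medians were -0.59 for the reactive astrocyte, -0.25 for the acute phase and -0.74 for the interferon list. They were -0.42 for the protease and 0.0034 for the serpin list, with -0.0097 over all genes.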

How the data were processed

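Raw fractional counts of 12 libraries were used, 3 mice per genotype. The deposited values are fractional read counts per gene, handled here like expected counts and made by the authors with Cutadapt 2.4, STAR 2.7.2b (GRCm38.p6 with human SOD1 cDNA) and featureCounts 1.6.4, on reverse-stranded exons, with fractions for reads on several sites or genes. The table is not normalized, and 0 of its columns remained without a sample.

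Counts were rounded, filtered with edgeR's filterByExpr (20155 of 45906 genes) and scaled with TMM. Robust quasi-likelihood tests (R 4.3.3, edgeR 4.0.16) were fitted over the 4 genotypes, with Benjamini-Hochberg adjustment over all genes and a threshold of 0.05. Standard errors were taken from the fold change and the F statistic. Log2 CPM used a prior count of 2. DESeq2 1.42.0, limma 3.58.1 voom, other filters and scaling, fractional counts, fewer genotypes, a replicate block, Y-linked transcripts (4 genes, over 1000 counts) and leaving out libraries were alternatives, which kept the tested genes unless the filter was changed. Of the models, edgeR alone was tested on simulated data, for the transgene comparison in Plekhg5-/- mice.

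Named are the 8 members, the targeted genes, the 5 genes most correlated with Serpina3n and Serpina3f, and list genes that were called or the 4 most abundant. One gene that this rule names is not reported here. Members and lists were chosen with earlier results of these data known. Promoters were aligned with Biopython 1.88, and transcripts are those of GENCODE M21. Pairs of libraries within a genotype were distinct (chi-square per degree of freedom 5.67 to 27.4). Intervals and floors cover counting error or the fitted spread of these mice.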

Additional observations from a re-analysis of the deposited data

Results flagged for a closer look

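The values of Serpina3f lay on opposite sides in the 2 backgrounds. Each Plekhg5+/+ SOD1-G93A library was under each Plekhg5+/+ library, the contrast on which the cluster was picked, and each Plekhg5-/- SOD1-G93A library was above each Plekhg5-/- library, a difference that did not pass the edgeR test. The difference of the effects was 6.05 on the log2 scale and did not pass either. It rests in part on the values that chose the cluster, and on 18 counts in the Plekhg5-/- SOD1-G93A and 4.5 counts in the Plekhg5-/- mice.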

How the results depend on the processing

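Of the 25 log2 fold changes of the 5 members tested, compared under up to 24 alternatives (585 values), 544 kept their direction and their side of the threshold, 27 kept the direction and lost the call, 5 kept the direction and gained one and 9 changed sign. Only 2 of the 25 were called at first, Serpina3n and Serpina3f with the transgene in Plekhg5+/+ mice, and the 27 lost calls are theirs. Serpina3f was called in 7 of 23 alternatives and Serpina3n in 13 of 24. With 1 library left out, Serpina3f was called in 1 of 12 fits and Serpina3n in 3 of 12. Counts that include Serpina3f against Plekhg5+/+ libraries draw on the values that chose the cluster, so their stability is no support. With Plekhg5 present, the number of members called with the transgene was 2, and it was 2 with a threshold of 0.1, DESeq2, DESeq2 size factors, unrounded counts and the replicate block. It was 1 (Serpina3n) with limma voom, at least 10 counts in every library, Y-linked transcripts as a covariate or without both libraries that stand apart (added after seeing the data), and 0 without a filter or with only the 2 genotypes in the fit. Leaving out 1 library gave 0 to 1 there, 0 to 1 for the loss of Plekhg5 without the transgene, and 0 to 0 in the other comparisons. For the loss of Plekhg5 without the transgene the number was 0, and 1 (Serpina3f) with DESeq2 with or without the prior and with the replicate block (log2 fold change -5.35, adjusted p = 0.0286, edgeR). DESeq2 with the prior also gave 1 in the interaction. The block moved no other call of the members. Replicate numbers belong to different mice, and 5 of 18 same-number pairs had correlated deviations over 0.1 (from -0.163 to 0.318). Pairs with different numbers were not set beside them, so whether equal numbers share more than a number was not tested.

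The sign changed for Serpina3i in the interaction with the DESeq2 prior (-0.0295) and for Serpina3c with the loss of Plekhg5 with Y-linked transcripts as a covariate (0.10). With 1 library left out, Serpina3c lay between -0.22 and 0.33 with the transgene in Plekhg5-/- mice and between -0.29 and 0.26 with the loss of Plekhg5, Serpina3g between -0.66 and 0.0211 and Serpina3i between -0.25 and 1.21 with the transgene in Plekhg5+/+ mice. The fold-change prior shrank Serpina3f to -0.32 with the transgene and -0.33 with the loss of Plekhg5. The count over all genes with the transgene in Plekhg5+/+ mice ran from 2 to 1198 against 498, in Plekhg5-/- mice from 0 to 44 against 1, with the loss of Plekhg5 from 4 to 57 against 6, in transgenic mice from 4 to 114 against 7, and in the interaction from 0 to 114 against 0 (1824 at an unadjusted p under 0.05). The causes were not tested. At this depth members with under 10 counts per library cannot show moderate differences. Serpina3f and Serpina3i gave no value with at least 10 counts in every library.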
